A study of Homo sapiens with 9 samples.

Results

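The comparison set THP-1 cells carrying a second short hairpin RNA against RASSF2 (shRASSF2-2) against THP-1 cells carrying a first one (shRASSF2-1). THP-1 is a human acute monocytic leukemia cell line, and the labels name a different library clone for each hairpin. Both groups were transduced with lentivirus, selected in puromycin at 1 ug/mL for 96 hours, and sequenced as poly(A) RNA. Each group had 3 libraries, all on the same flow cell, so 6 of the 9 libraries of the series were used and the 3 control libraries were not. The members are all 15164 genes of 18522 in the table that had a normalized read count of at least 10 in at least 3 of these 6 libraries. Without a control the comparison gives the difference between the hairpins only. It does not tell which of them departs from unmodified cells, and the depth of knockdown, the hairpin sequence and the viral preparation cannot be told apart. No label says whether the replicates of a hairpin are separate cultures, so p-values rest on a spread between libraries that may be technical only.

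RASSF2 belongs to the Ras association domain family. It carries a domain that binds active Ras proteins and a SARAH domain that binds the Hippo kinases MST1 and MST2. A short hairpin RNA is cut by DICER1 and loaded into an Argonaute protein, which then degrades transcripts that pair with it, and the pairing of a short seed is enough to lower other transcripts in part. Monocytes sense foreign nucleic acid through receptors such as RIG-I and the Toll-like receptors. The type I interferons they then release act through a complex that holds STAT2 and IRF9 on promoters that hold an interferon-stimulated response element. As monocytic cells mature into macrophages they stop dividing, lose the granule proteins of progenitors, and gain lysosomes, scavenger receptors and iron handling genes.

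The promoters below were chosen among interferon-stimulated genes that were higher with shRASSF2-2 because they hold the motif marked in them. Each stretch is read 5′ to 3′ on the strand of the gene and ends before the RefSeq transcription start on GRCh38.p14, and capitals mark GAAA, any 2 bases and GAAA again, or the reverse complement with TTTC in place of GAAA, the core letters of the interferon-stimulated response element. These letters also occur in the sites of other interferon regulatory factors.
ISG15 (chr1:1013364-1013419, plus strand): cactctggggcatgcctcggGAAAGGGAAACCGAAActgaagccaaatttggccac
IFIT1 (chr10:89392487-89392549, plus strand): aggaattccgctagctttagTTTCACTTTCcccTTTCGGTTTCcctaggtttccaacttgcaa
IFIT3 (chr10:89327821-89327904, plus strand): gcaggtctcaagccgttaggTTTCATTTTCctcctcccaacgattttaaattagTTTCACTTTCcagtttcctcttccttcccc
IFI6 (chr1:27672256-27672368, minus strand): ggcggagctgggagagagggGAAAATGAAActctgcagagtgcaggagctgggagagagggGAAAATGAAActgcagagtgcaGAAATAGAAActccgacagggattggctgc
EPSTI1 (chr13:42992262-42992311, minus strand): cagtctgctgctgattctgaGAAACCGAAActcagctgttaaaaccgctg
GBP1 (chr1:89065306-89065355, minus strand): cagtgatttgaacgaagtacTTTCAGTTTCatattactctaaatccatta
CXCL10 (chr4:76023689-76023738, minus strand): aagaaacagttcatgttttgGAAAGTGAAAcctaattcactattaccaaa
ISG15, IFIT1 and IFIT3 held the letters at 2 places before the start and IFI6 at 3, while EPSTI1, GBP1 and CXCL10 held them at 1. In ISG15 the 2 places overlap and read as 1 run. Not every gene with a large difference held the letters before the start. In the 250 bases before the start CXCL11 and RSAD2, with log2 differences of 7.85 and 5.64 against 5.31 for EPSTI1, held none, nor did MX1, OAS1 and CMPK2. The counts in the next paragraph also take in bases after the start. Genes named here as holding none may therefore be among those counted as holding the motif.

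Promoters from 250 bases before to 50 bases after the start were found in RefSeq for 11740 of the genes tested, and 347 of them (2.96%) held the motif on either strand. Among interferon-stimulated antiviral effector genes 23 of 31 (74.2%) held it, and among genes at least 16-fold higher with shRASSF2-2 24 of 147 (16.3%). It lay in 106 of 1830 promoters of genes at least 2-fold higher (5.79%) and in 30 of 1423 of genes at least 2-fold lower (2.11%). Over all 27305 promoters that RefSeq gave, 996 (3.65%) held it. Some of these groups share genes, and a match of letters is not a bound site.

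Reads per library numbered 14508544, 14826877 and 15176637 with shRASSF2-2, against 13342774, 14235139 and 14072305 with shRASSF2-1. The authors' normalized values, used below as normalized read counts, summed to 16448864, 16824508 and 16677909 with shRASSF2-2, against 12709721, 12585358 and 12766043 with shRASSF2-1. The deposited scaling therefore gave the shRASSF2-2 libraries a larger total. On this scale the median gene differed by -0.02 on the log2 scale, and with equal totals by -0.41, a shift of -0.39. Scaled with edgeR's TMM factors the median gene differed by -0.03. The first principal component held 87.3% of the variance of the 6 libraries and separated the groups. The second held 3.71% and set shRASSF2-1 replicate 1 at 28.3 against replicate 2 at -26.0. The median SD of log2 values within a group was 0.11 for each hairpin.

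RASSF2 itself was measured first. The gene (Entrez 9770, chromosome 20, 4780023 to 4823608 on GRCh38) had normalized read counts of 331, 342 and 262 with shRASSF2-2, against 134, 198 and 159 with shRASSF2-1. The groups did not overlap, and the transcript was higher with shRASSF2-2 by 0.93 on the log2 scale (SE 0.15, limma adjusted p = 9.6e-05), or by 0.54 with equal totals. Here and below a log2 difference is shRASSF2-2 minus shRASSF2-1 on log2(normalized read count + 1), and a gene was called at a limma adjusted p under 0.05.

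Differences between the hairpins ran through most of the transcriptome. Of 15164 genes, 10945 (72.2%) were called, 5511 higher with shRASSF2-2 (36.3%) and 5434 lower (35.8%). With equal totals the split was 3480 higher and 8309 lower, and 288 genes were called in opposite directions by the scalings. At least 2-fold differences were called for 4384 genes (28.9%), of which 2405 were higher (15.9%) and 1979 lower (13.1%). Under both scalings 1601 genes were at least 2-fold higher and 1979 at least 2-fold lower. Equal totals move genes downward, so the lower count could hardly fall and does not show that the lower genes are less sensitive to scaling. The 3 libraries of one hairpin lay wholly above or below those of the other in 11347 genes (74.8%). A share of called genes near these figures is the background of this comparison and is not a feature of any gene list.

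On the deposited scale, large differences were mostly toward shRASSF2-2. The counts by fold that follow were not made with equal totals. At 4-fold or more 944 genes were higher and 449 lower, at 16-fold or more 210 and 21, and at 32-fold or more 93 and 5. The median absolute log2 difference was 0.58. Of the genes tested, 558 reached the minimum in 1 group only, and 530 of those were called. No gene list below had more than 2 such members.

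**Figure D1:**
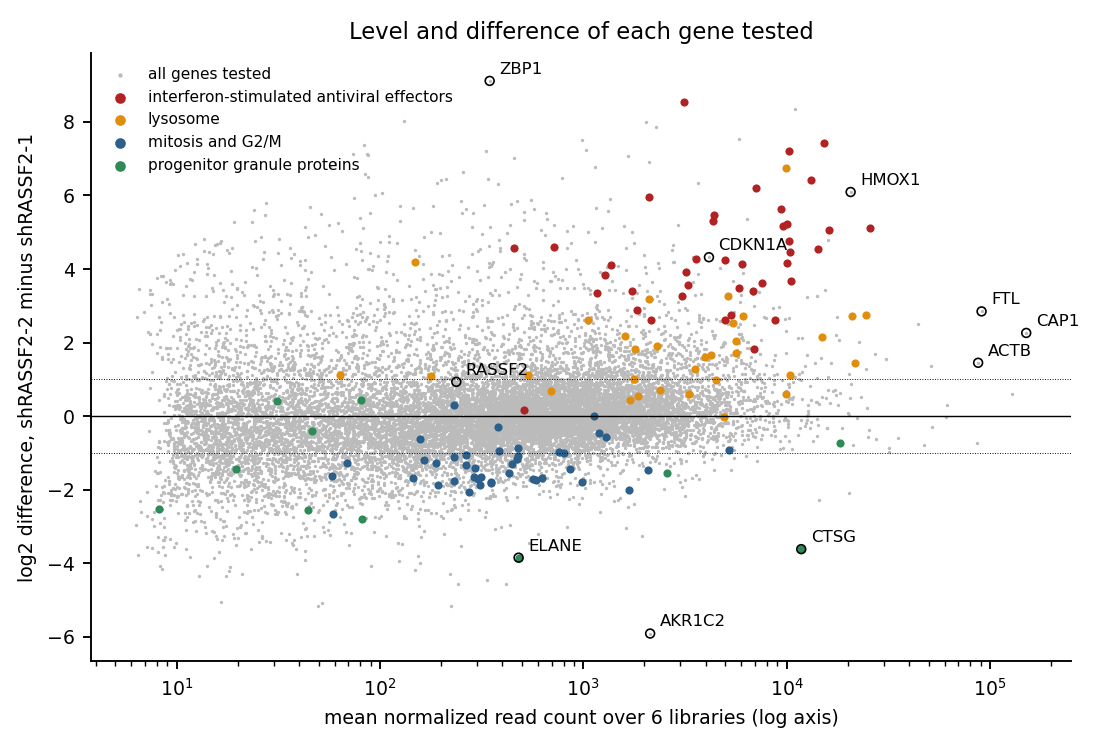
Each point is a gene tested, with the mean normalized read count over the 6 libraries on a log axis and the log2 difference of shRASSF2-2 minus shRASSF2-1. Interferon-stimulated effectors (red) reach 8.55 for GBP1, most lysosomal genes (orange) lie above 0, mitotic (blue) and granule genes (green) mostly lie below 0, and dotted lines mark 2-fold.

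Interferon-stimulated antiviral effector genes stood highest. Of the 40 on the list all were tested, 39 were called higher and all of these were at least 2-fold higher, with a median log2 difference of 4.20 against -0.02 over all genes tested. With equal totals the median was 3.81, 39 were called higher and 1 lower. Together these genes took 3.02%, 2.91% and 3.23% of reads in the shRASSF2-2 libraries and 0.211%, 0.227% and 0.212% in the shRASSF2-1 libraries, with means of 3.05 ± 0.16% and 0.217 ± 0.009% (SD, n = 3 each). In bulk RNA, more cells that express a gene and more of its RNA per cell cannot be told apart.

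IFIT1, which binds foreign RNA that lacks a host cap and whose promoter is printed above, had 28863, 28611 and 33315 with shRASSF2-2, against 177, 163 and 189.6 with shRASSF2-1. That is a log2 difference of 7.41 (SE 0.07, limma adjusted p = 4.3e-16). IFIT2 had 19106, 18193 and 24102 with shRASSF2-2, against 172, 111 and 132 with shRASSF2-1. IFIT3, the partner that stabilizes IFIT1 on RNA, had 24995, 24604 and 28968 with shRASSF2-2, against 303, 294 and 317 with shRASSF2-1. The 3 genes lie near one another on chromosome 10. Their shRASSF2-2 libraries stood far above the shRASSF2-1 libraries with no overlap, and 74.8% of all genes tested had no overlap.

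ISG15, a ubiquitin-like protein that is joined to other proteins during infection, had 13565, 14141 and 14339 with shRASSF2-2, against 171, 209 and 184 with shRASSF2-1, with a log2 difference of 6.22. IFI6, an antiviral membrane protein, was among the 10 most abundant genes with at least a 2-fold difference and had 49324, 51283 and 49644 with shRASSF2-2, against 1299, 1712 and 1336 with shRASSF2-1. OAS2, which makes the 2′-5′ oligoadenylates that switch on RNase L, had 19378, 19428 and 20098 with shRASSF2-2, against 499, 506 and 581 with shRASSF2-1. RSAD2, viperin, which makes a chain-terminating nucleotide, had 17731, 17499 and 19872 with shRASSF2-2, against 372, 336 and 391 with shRASSF2-1, a log2 difference of 5.64. EPSTI1, whose promoter is also printed, had 8301, 8406 and 8734 with shRASSF2-2, against 201, 223 and 216 with shRASSF2-1. In each of these genes all shRASSF2-2 libraries were above all shRASSF2-1 libraries, as in 5662 of all 15164 genes tested.

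Guanylate-binding proteins, GTPases that coat vacuoles of intracellular microbes, did not move alike. GBP1 had 6323, 5728 and 6789 with shRASSF2-2, against 19.1, 15 and 13.6 with shRASSF2-1, the highest log2 difference of the effector list at 8.55 (limma adjusted p = 6.3e-15). GBP5, the effector that was not called, had 526, 524 and 579 with shRASSF2-2, against 460.1, 506 and 472 with shRASSF2-1, a log2 difference of 0.18 (limma adjusted p = 0.051). With equal totals GBP5 was called lower at -0.21, and without shRASSF2-1 replicate 2 it was called higher at 0.22. GBP5 was singled out after its values were seen.

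**Figure D2:**
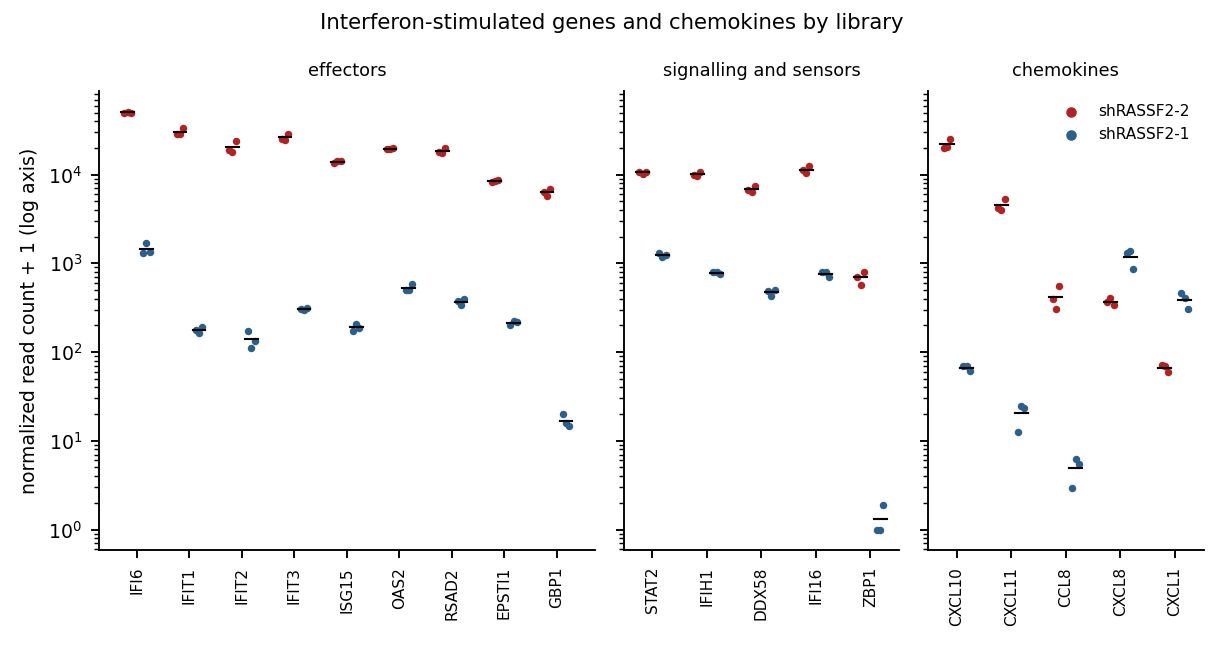
Normalized read count + 1 on a log axis for effectors, signalling genes and sensors, and chemokines; each point is a library, shRASSF2-2 in red at the left of each pair and shRASSF2-1 in blue, and bars are group means. The genes shown were named for level, small p or large difference. The groups do not overlap in any of them, as in 74.8% of all genes tested. CXCL8 and CXCL1 are the genes drawn with shRASSF2-2 below shRASSF2-1.

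The interferon signalling and nucleic acid sensor list had a median log2 difference of 1.75. Of its 34 members 27 were called higher, 6 lower and 1 was not called. STAT2, a subunit of the factor that binds interferon-stimulated response elements, had 10696, 10234 and 10742 with shRASSF2-2, against 1306, 1162 and 1239 with shRASSF2-1. The RNA sensors IFIH1 (MDA5) and DDX58 (RIG-I) were higher by log2 differences of 3.68 and 3.87, the DNA sensor IFI16 by 3.90, and the double-stranded RNA kinase EIF2AK2 by 2.66. In all 5 the libraries of the hairpins did not overlap, as in 74.8% of all genes tested. These 5 were named for the smallest p in the list, which favors genes without overlap.

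ZBP1, a sensor of left-handed nucleic acid that can start necroptosis, had the highest fitted difference of all genes. It had 704, 574 and 801 with shRASSF2-2, against 0, 0 and 0.907 with shRASSF2-1, which is 1856 reads against 1 read, a ratio of 2279 with an exact 95% interval of 409 to 90082. This interval covers counting error only, and ZBP1 reached the minimum count with shRASSF2-2 only. Among further sensors, chosen after their values were seen, the cytosolic DNA sensor AIM2 had 392, 272 and 475 with shRASSF2-2, against 2.86, 4.42 and 3.63 with shRASSF2-1. The endosomal RNA sensor TLR7 had 828, 742 and 1014 with shRASSF2-2, against 10.5, 29.2 and 9.98 with shRASSF2-1. Not every sensor was higher. TMEM173 (STING), the adaptor of cytosolic DNA sensing, had 984, 1003 and 1037 with shRASSF2-2, against 4279, 3969 and 3777 with shRASSF2-1, and was lower with shRASSF2-2 at a log2 difference of -1.99 (limma adjusted p = 4.1e-12).

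IFNB1, the gene of interferon beta, was the only interferon gene in the table and was too low to test. It had 6.80, 3.40 and 7.69 with shRASSF2-2, against 0.953, 1.77 and 0.907 with shRASSF2-1, which is 16 reads against 4 in all, so its level rests on few counts.

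The chemokine list was split, with 4 members higher, 4 lower and 3 not called of 11 tested, and a median log2 difference of 0.02 that changed sign with equal totals (-0.35). CXCL10 and CXCL11 attract T cells through CXCR3. CXCL10, whose promoter is printed above, had 19886, 20544 and 25485 with shRASSF2-2, against 68.6, 68.1 and 60.8 with shRASSF2-1, a log2 difference of 8.35 (limma adjusted p = 6.3e-16). CXCL11 had 4225, 4006 and 5321 with shRASSF2-2, against 11.4, 23.9 and 22.7 with shRASSF2-1. CCL8 had 391, 306 and 559 with shRASSF2-2, against 1.91, 5.30 and 4.54 with shRASSF2-1. The neutrophil chemokines ran the other way. CXCL8 had 363, 403 and 339.6 with shRASSF2-2, against 1289, 1386 and 864 with shRASSF2-1. CXCL1 had 70.3, 69.2 and 58.2 with shRASSF2-2, against 460.1, 402 and 304 with shRASSF2-1. The macrophage chemokine CCL22 had 48.8, 77.2 and 51.6 with shRASSF2-2, against 203, 213 and 223 with shRASSF2-1. All 6 were called and their libraries did not overlap between the hairpins, which follows largely from naming the members with the smallest p.

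Inflammatory genes outside the interferon lists were mixed too. Of 29 NF-kB and cytokine genes tested, 17 were called higher and 9 lower, with a median of 0.69 (14 and 11 with equal totals). The costimulatory ligands CD86 and CD80 were higher by log2 differences of 4.04 and 5.53, and CD80 had 467, 428 and 589 with shRASSF2-2, against 17.1, 6.19 and 8.16 with shRASSF2-1. CD83, SOD2 and the interleukin 1 antagonist IL1RN were higher by log2 differences of 2.61, 2.30 and 2.58. IL12B, a subunit of interleukin 12 chosen after its values were seen, had 0, 0 and 0 with shRASSF2-2, against 38.1, 23.9 and 37.2 with shRASSF2-1, and its 3 shRASSF2-2 libraries held no read. Against a floor of 3 reads per library it was at least 9.82-fold lower with shRASSF2-2.

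Inflammasome and pyroptosis genes gave 11 higher and 3 lower of 15, with a median of 1.25. CASP1, the protease that matures interleukin 1 beta, had 6234, 6091 and 6810.0 with shRASSF2-2, against 1344, 1118 and 1125 with shRASSF2-1, and was higher by a log2 difference of 2.42. The inflammatory caspase CASP4 was higher by a log2 difference of 1.60, the adaptor PYCARD by 1.38, and GSDME, a pore protein, by 3.17. GSDMD, the pore protein that caspase cleavage opens, had 244, 178 and 17.6 with shRASSF2-2, against 12.4, 14.1 and 11.8 with shRASSF2-1, and replicate 3 of shRASSF2-2 lay near the shRASSF2-1 libraries. Its log2 difference was 2.77, or 3.93 without that library and 2.07 without shRASSF2-2 replicate 1. NLRP12, a regulator of inflammation, was lower and had 38.5, 29.5 and 35.2 with shRASSF2-2, against 129, 158 and 132 with shRASSF2-1.

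Genes of antigen presentation were mostly higher. Of 14 genes of class I presentation tested, 10 were called higher and none lower, and of 9 genes of class II presentation 7 were higher and RFX5 was lower. B2M, the shared light chain of class I, had 21203, 22674 and 24836 with shRASSF2-2, against 2175, 2876 and 2256 with shRASSF2-1, a log2 difference of 3.24. The class II chaperone CD74 had 5609, 5064 and 6476 with shRASSF2-2, against 1778, 2091 and 1848 with shRASSF2-1. HLA-DRB1 had 2299, 1974 and 2444 with shRASSF2-2, against 1149.7, 1064 and 1003 with shRASSF2-1. The lysosomal thiol reductase IFI30 and the protease CTSS, both of which prepare peptides for class II, were higher by log2 differences of 4.79 and 3.27. HLA-B, HLA-C and HLA-E varied widely among libraries of the same hairpin and were not called. HLA genes have near-identical copies and alternative haplotypes, and their values are uncertain.

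Macrophage surface genes were mostly higher. Of 23 scavenger receptor and C-type lectin genes tested, 14 were higher and 4 lower with a median of 1.59, and of 13 Fc receptor and LILR genes 10 were higher and none lower with a median of 1.45. MSR1, the class A scavenger receptor, had 2007, 1716 and 2193 with shRASSF2-2, against 5.72, 19.5 and 8.16 with shRASSF2-1, a log2 difference of 7.51. CHI3L1, a chitinase-like secreted protein and 1 of the 10 most abundant genes with at least a 2-fold difference, had 44484, 47341 and 45958 with shRASSF2-2, against 16383, 15194 and 15292 with shRASSF2-1. TYROBP, the signalling adaptor of TREM2 and other receptors, had 10513, 10823 and 11254 with shRASSF2-2, against 1159, 1139 and 1023 with shRASSF2-1. TREM2 had 3899, 4001 and 4031 with shRASSF2-2, against 878, 752 and 908 with shRASSF2-1. CD209, a lectin of dendritic cells and macrophages, had 3354, 2940.1 and 3557 with shRASSF2-2, against 457, 480.1 and 495 with shRASSF2-1. The macrophage marker CD68 was higher by a log2 difference of 2.13 and the efferocytosis receptor MERTK by 2.54.

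Among Fc receptors, FCGRT, which recycles immunoglobulin G, had 5961, 5968 and 5945 with shRASSF2-2, against 1857, 1829 and 1903 with shRASSF2-1. The activating receptor FCGR2A had 1778, 1801 and 1771 with shRASSF2-2, against 399, 445 and 381 with shRASSF2-1. FCGR2B and FCGR2C were higher by log2 differences of 5.51 and 4.88, with 10.5 or fewer in each shRASSF2-1 library. FCGR1A and FCGR1B are near-identical copies, as are FCGR2B and FCGR2C, and how reads were shared within each pair is uncertain. SIRPA, the receptor for the signal that spares cells from being engulfed, was higher by a log2 difference of 1.45.

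Complement genes gave both directions. The C1q chain C1QA had 3567, 2861 and 3896 with shRASSF2-2, against 130.5, 133 and 122 with shRASSF2-1, and was higher by a log2 difference of 4.72, while the chain C1QC had 702, 566 and 731 with shRASSF2-2, against 30.5, 222 and 148 with shRASSF2-1. C1QB, with 44.2, 37.4 and 54.9 with shRASSF2-2, against 2.86, 58.4 and 19.1 with shRASSF2-1, was not called. Both varied among the shRASSF2-1 libraries. The log2 difference of C1QC was 2.71, or 1.86 without shRASSF2-1 replicate 1, and C1QB was called higher at 2.39 without shRASSF2-1 replicate 2. The anaphylatoxin receptors C5AR1 and C3AR1 were higher by log2 differences of 5.0 and 1.95. The inhibitor SERPING1 was higher and had 2303, 1971 and 2490.2 with shRASSF2-2, against 47.6, 76.9 and 22.7 with shRASSF2-1. The central component C3 had 2579, 2958 and 2578 with shRASSF2-2, against 3949, 4829.9 and 4351 with shRASSF2-1, and was lower, with a log2 difference of -0.69, and CFP (properdin), the receptor CR1 and the inhibitor CD46 were lower at -1.48, -2.31 and -1.20. Of 17 complement genes tested 9 were higher and 5 lower (9 and 6 with equal totals).

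Lysosomal genes were higher almost as a whole. Of 32 tested 31 were called higher, 24 of them at least 2-fold, none was lower and 1 was not called, with a median of 1.64. With equal totals 29 were higher and 1 lower, with a median of 1.25. The list took 1.72%, 1.72% and 1.72% of reads with shRASSF2-2 and 0.616%, 0.668% and 0.596% with shRASSF2-1. The protease CTSD had 43430.0, 42921 and 42477 with shRASSF2-2, against 5918, 7379.6 and 5834 with shRASSF2-1. CTSB, another cathepsin, had 36349.9, 36218 and 36258 with shRASSF2-2, against 5451, 5875 and 5058 with shRASSF2-1. LAMP2, a membrane protein of lysosomes, had 10057, 10858 and 10894 with shRASSF2-2, against 1578, 1657 and 1610.2 with shRASSF2-1. LIPA, which splits stored cholesterol esters, was higher by a log2 difference of 2.54, the protective protein CTSA by 3.25, the proton pump subunit ATP6V0D1 by 3.18 and progranulin GRN by 2.15. In each of these the groups did not overlap, as in 74.8% of all genes tested. The annotated span of LIPA, 89213572 to 89414679 on chromosome 10, takes in IFIT1, IFIT2 and IFIT3. Reads where they overlap cannot be assigned without strand, so the value of LIPA is uncertain.

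Promoters were also searched for a second motif. Those of lysosomal genes can hold TCACGTGA, which TFEB and its relatives bind and which contains the CACGTG read by MYC, USF and other factors. This motif was searched after the lysosomal genes were seen to be higher. It equals its own reverse complement, and capitals mark it in these stretches, which end before the RefSeq start on GRCh38.p14.
CTSA (chr20:45891289-45891334, plus strand): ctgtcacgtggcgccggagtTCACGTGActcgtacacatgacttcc
ATP6V0D1 (chr16:67481190-67481237, minus strand): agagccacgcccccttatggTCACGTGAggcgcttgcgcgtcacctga
LAMP1 (chr13:113297190-113297237, plus strand): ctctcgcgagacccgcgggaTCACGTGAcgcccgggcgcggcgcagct
MCOLN1 (chr19:7522562-7522623, plus strand): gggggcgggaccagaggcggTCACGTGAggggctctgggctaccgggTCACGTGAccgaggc
Of 22 lysosomal promoters found, 5 (22.7%) held the motif in 300 bases, against 211 of 11740 promoters of genes tested (1.80%). It lay in 2.90% of promoters of genes at least 2-fold higher and in 0.633% of those at least 2-fold lower. It lay in 2 of 147 promoters (1.36%) of genes at least 16-fold higher, and none of the 31 interferon effector promoters held it. The fifth lysosomal gene with the motif was GAA, which splits glycogen in lysosomes and had a log2 difference of 0.59. LAMP1, MCOLN1 and GAA were chosen after their values were seen, and LAMP1 and MCOLN1 had log2 differences of 1.68 and 1.13. TFEB itself had 2718, 2597 and 2569 with shRASSF2-2, against 614, 532 and 581 with shRASSF2-1. Its relative MITF had 478, 464 and 463 with shRASSF2-2, against 42.9, 61 and 57.2 with shRASSF2-1. GPNMB, a lysosomal membrane protein of macrophages, had 18741, 20219.8 and 19657 with shRASSF2-2, against 98.1, 406 and 151 with shRASSF2-1. All 3 were named after their values were seen, and the windows of TFEB and GPNMB held no TCACGTGA before the start.

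Lipid handling and iron genes of macrophages showed some of the largest differences among abundant transcripts. LPL, the secreted lipase, had 6789, 8442 and 6535 with shRASSF2-2, against 83.8, 85.8 and 95.3 with shRASSF2-1, a log2 difference of 6.34. The fatty acid binding proteins FABP4 and FABP5 were higher by log2 differences of 5.73 and 3.33, and the lipid droplet protein PLIN2 by 1.69. APOE, a carrier of lipids, had 967, 1059 and 1121 with shRASSF2-2, against 94.3, 431 and 161 with shRASSF2-1. Its log2 difference was 2.48, or 3.07 without shRASSF2-1 replicate 2, which lay above its fellows. The cholesterol exporter ABCA1 was higher by a log2 difference of 0.74 and its relative ABCG1 by 1.66. NR1H3, the oxysterol receptor LXR alpha, had 441, 342 and 389 with shRASSF2-2, against 429.6, 387 and 344 with shRASSF2-1, and was not called, though with equal totals it was called lower at -0.38. Of the 17 lipid genes 13 were higher and 2, MYLIP and PLTP, were lower (11 and 3 with equal totals).

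HMOX1, which degrades heme and frees its iron, had 43441, 36295 and 42389 with shRASSF2-2, against 615, 618 and 549 with shRASSF2-1, a log2 difference of 6.09 (SE 0.07, limma adjusted p = 1.4e-15). The ferritin chains store iron. FTL had 157046, 150744 and 171314 with shRASSF2-2, against 24112, 23119 and 19479.8 with shRASSF2-1. FTH1 had 74720.0, 70063 and 81439 with shRASSF2-2, against 13545, 14255 and 12094 with shRASSF2-1. The exporter SLC40A1 had 159, 175 and 154 with shRASSF2-2, against 30.5, 41.6 and 48.1 with shRASSF2-1, and the importers SLC11A2 and SLC11A1 were higher by log2 differences of 2.12 and 2.13. TFR2 was lower, with a log2 difference of -1.10. Of 12 iron genes tested 9 were higher and 2 lower (7 and 3 with equal totals), and the list took 1.76%, 1.61% and 1.85% of reads with shRASSF2-2 and 0.363%, 0.364% and 0.312% with shRASSF2-1. Ferritin genes have many processed pseudogenes.

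Metallothioneins, which bind zinc and copper, gave 8 higher and none lower of 9 zinc handling genes tested. MT2A had 1535, 1811 and 1985 with shRASSF2-2, against 92.4, 139 and 103 with shRASSF2-1. MT1E had 478, 508 and 538 with shRASSF2-2, against 102, 81.3 and 91.6 with shRASSF2-1. The zinc exporter SLC30A1 had 2195, 2119.7 and 2235 with shRASSF2-2, against 309, 354 and 398 with shRASSF2-1. MT1G had 35.1, 34 and 44 with shRASSF2-2, against 41, 47.7 and 27.2 with shRASSF2-1, and was not called. Metallothioneins are near-identical copies and are uncertain.

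Redox genes that NRF2 controls did not move as a block. The glutamate-cysteine ligase subunit GCLC was higher by a log2 difference of 2.93, and ME1 and PGD, which make NADPH, by 2.25 and 1.37. The ketosteroid reductases AKR1C2 and AKR1C3 were lower. AKR1C2, the lowest of all genes with a mean of at least 50, had 46.5, 124 and 56 with shRASSF2-2, against 4330.3, 4047 and 4196 with shRASSF2-1, a log2 difference of -5.91 (limma adjusted p = 1.5e-10). AKR1C3 had 14.7, 27.2 and 16.5 with shRASSF2-2, against 478, 445 and 468 with shRASSF2-1. The AKR1C genes are near-identical copies, so the split between them is uncertain. Of the 22 NRF2 and AKR1C genes 14 were higher and 5 lower (14 and 8 with equal totals).

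**Figure D3:**
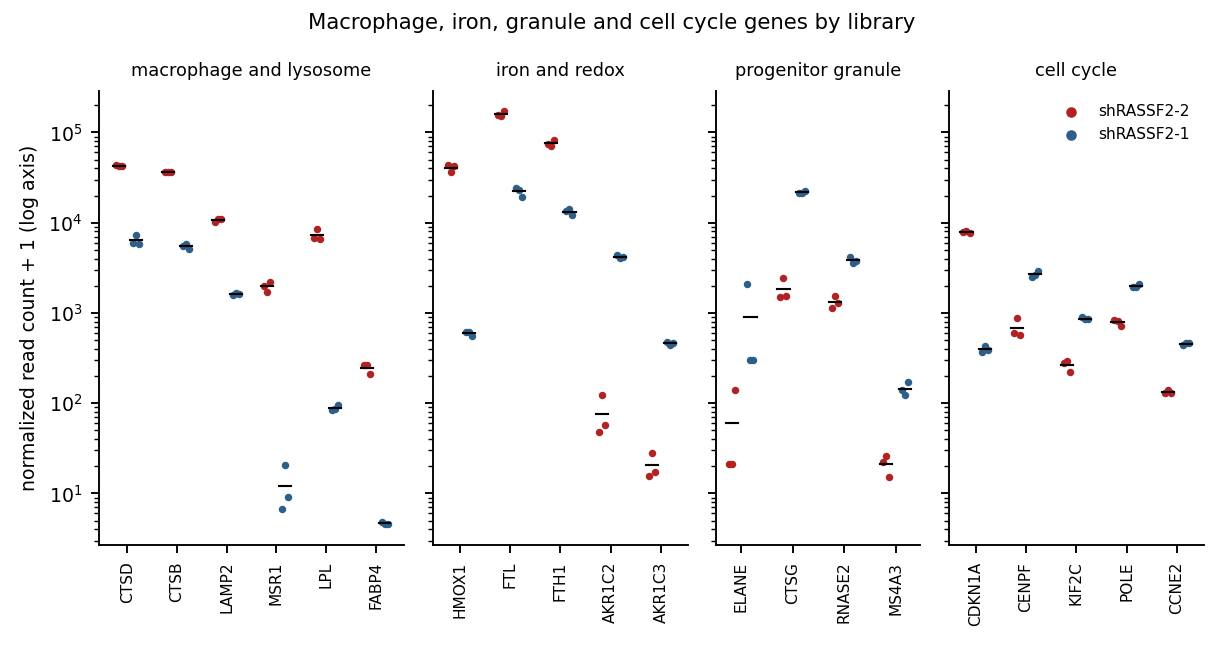
Normalized read count + 1 on a log axis for macrophage and lysosomal, iron and redox, granule and cell cycle genes; each point is a library, shRASSF2-2 in red at the left of each pair and shRASSF2-1 in blue, and bars are group means. HMOX1 lies near 40709 with shRASSF2-2, and ELANE varies within both groups.

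The actin and adhesion genes were higher on the whole. Of 29 actin genes 22 were called higher and 6 lower, with a median of 0.81 (18 and 7 with equal totals). CAP1, which recycles actin monomers, took the largest share of reads in each shRASSF2-2 library, 1.48% to 1.51%, and had 243631, 254006 and 250746 with shRASSF2-2, against 57247, 48413 and 50719 with shRASSF2-1. ACTB, beta-actin, had 122110.2, 136392 and 125925 with shRASSF2-2, against 47861, 45312 and 47298 with shRASSF2-1. TMSB4X, which holds actin monomers, had 41430.1, 40522 and 42997 with shRASSF2-2, against 13737, 12753 and 12486 with shRASSF2-1. LCP1, an actin bundler of white blood cells, had 33504, 36667 and 33609 with shRASSF2-2, against 14217, 13713 and 14987 with shRASSF2-1. The Arp2/3 subunits ACTR3 and ARPC5 were higher by log2 differences of 1.88 and 1.66, the filopodial bundler FSCN1 by 2.52 and the severing protein GSN by 1.60. ACTB is often used to scale other transcripts, and here it had a log2 difference of 1.45 (1.06 with equal totals).

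Integrins and adhesion genes gave 14 higher and 5 lower of 20 tested (11 and 6 with equal totals). ITGB7 had 5199, 5619 and 5077 with shRASSF2-2, against 197, 219 and 215 with shRASSF2-1, a log2 difference of 4.65. ITGA4, its partner, was higher by a log2 difference of 2.42, the fibronectin receptor chain ITGA5 by 2.49 and the leukocyte integrin ITGAL by 2.26. The chain ITGAV was lower, with 883, 895 and 968 with shRASSF2-2, against 1993, 1949 and 1842 with shRASSF2-1. All 8 genes of the phagocyte NADPH oxidase, which makes superoxide, were called higher, 7 of them with equal totals. Its membrane subunit CYBB had 10964, 11865 and 11114 with shRASSF2-2, against 3381, 3373 and 3706 with shRASSF2-1, and RAC2, the lowest of the 8, had a log2 difference of 0.26, or -0.13 with equal totals.

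CAP1 and its neighbours on chromosome 1 did not move together. CAP1 lies at 40040240 to 40072648 on GRCh38 and its end overlaps PPT1, a lysosomal thioesterase at 40071461 to 40097252, which had 71029.7, 77549 and 73274 with shRASSF2-2, against 30110.3, 28046 and 28635 with shRASSF2-1. Reads in the overlap cannot be assigned without strand. Of 23 genes tested within 500 kb of CAP1, 6 were called higher, 11 lower and 6 were not called. The nearby genes RLF and SMAP2 were higher by log2 differences of 0.78 and 0.53, ZMPSTE24 was not called (0.09, or -0.30 and called lower with equal totals), and the collagen gene COL9A2 was lower at -0.87. These 4 genes were named after their values were seen.

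Transcription factors of the myeloid lineage gave both directions. Of 29 tested 19 were higher and 8 lower (15 and 10 with equal totals). MAF, a factor of mature macrophages, had 3017, 3203 and 3129.7 with shRASSF2-2, against 109, 156 and 133 with shRASSF2-1. EGR2 had 531, 672 and 581 with shRASSF2-2, against 25.7, 30.9 and 18.1 with shRASSF2-1, and TFEC and KLF6 were higher by log2 differences of 1.60 and 1.65. MYB, which keeps progenitors dividing, had 1151, 1247 and 1066 with shRASSF2-2, against 5182, 4978 and 5293 with shRASSF2-1, a log2 difference of -2.16. GFI1 and KLF2 were chosen after their values were seen. GFI1, a repressor in granulocyte progenitors, had 1095, 1494 and 1219 with shRASSF2-2, against 4901, 4496 and 5099 with shRASSF2-1. KLF2, a factor of quiescent cells, had 18.1, 27.2 and 14.3 with shRASSF2-2, against 184, 221 and 181 with shRASSF2-1. SPI1 (PU.1), the master factor of the lineage, had 8734, 8718 and 9114 with shRASSF2-2, against 7480.4, 6672 and 6563 with shRASSF2-1, a log2 difference of 0.36 that was -0.03 and not called with equal totals.

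Granule proteins of granulocyte and monocyte progenitors were lower. Of 11 tested none was higher and 8 were lower, 7 at least 2-fold, with a median of -1.55, and MPO was too low to test. CTSG, cathepsin G, had 1486, 2461 and 1526 with shRASSF2-2, against 21289.6, 21512 and 22551 with shRASSF2-1, a log2 difference of -3.62 (limma adjusted p = 6.9e-11). ELANE, neutrophil elastase, had 20.4, 20.4 and 138 with shRASSF2-2, against 2107, 302 and 298 with shRASSF2-1. Replicate 1 of shRASSF2-1 and replicate 3 of shRASSF2-2 stood well above their fellows, and without the first the log2 difference was -2.91 and without the second -4.75, against -3.85 with all libraries. RNASE2 had 1146, 1541 and 1281 with shRASSF2-2, against 4219, 3595 and 3738 with shRASSF2-1. MS4A3, a membrane protein of these progenitors, had 21.5, 25 and 14.3 with shRASSF2-2, against 138, 123 and 171 with shRASSF2-1. CEACAM6, PRG2 and SERPINB10 were not called.

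Monocyte surface genes and growth factor receptors gave both directions. The growth factor receptor CSF1R had 9999.6, 9818 and 10088 with shRASSF2-2, against 2763, 2658 and 2792 with shRASSF2-1, CSF2RB was higher by a log2 difference of 2.46, and the neutrophil growth factor receptor CSF3R was lower at -0.86. CD14 was higher by a log2 difference of 1.70, CD33 was lower at -0.68, and lysozyme LYZ and the integrin ITGAM were not called. Of 13 markers of THP-1 and monocytic cells tested 10 were higher and 1 lower (8 and 3 with equal totals). All 6 libraries expressed SPI1, PTPRC, CD68 and CSF1R, while MPO and MEIS1 of the same list were too low to test.

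Genes of cell division were lower with shRASSF2-2, in lists of mitosis and of DNA replication. Of 41 mitosis genes 39 were called lower, 31 at least 2-fold, none was higher and 2 were not called, with a median of -1.42. Of 44 replication genes 37 were lower, 10 at least 2-fold, and 3 were higher, with a median of -0.63. With equal totals 40 of each list were lower and 1 replication gene was higher. The mitosis list took 0.0890%, 0.110% and 0.0888% of reads with shRASSF2-2 and 0.276%, 0.280% and 0.278% with shRASSF2-1.

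CENPF, a kinetochore protein, had 593, 883 and 563 with shRASSF2-2, against 2510.0, 2619 and 2895 with shRASSF2-1, a log2 difference of -2.0. The kinetochore motor CENPE had 251, 298 and 266 with shRASSF2-2, against 827, 927 and 956 with shRASSF2-1. The mitotic motor KIF2C had 278, 292 and 223 with shRASSF2-2, against 899, 849.6 and 851 with shRASSF2-1. ANLN, which builds the cleavage furrow, and the checkpoint kinase TTK were lower, with log2 differences of -1.80 and -1.89. Among replication genes, POLE, the leading strand polymerase, had 839, 805 and 716 with shRASSF2-2, against 1935, 1955 and 2067 with shRASSF2-1. The cyclin CCNE2 and the licensing factor CDT1 were lower, with log2 differences of -1.78 and -1.78, and the helicase subunits MCM4 and MCM7 stood at -1.02 and -0.99. In all of these shRASSF2-2 replicate 2 was above at least 1 of its fellows and below every shRASSF2-1 library.

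CDKN1A (p21), which binds and stops cyclin-dependent kinases, ran opposite to these genes. CDKN1A had 7879, 8184 and 7665 with shRASSF2-2, against 372, 429.7 and 384 with shRASSF2-1, a log2 difference of 4.32 (limma adjusted p = 8.3e-15). Other inhibitors and pocket proteins gave no common direction. Their log2 differences were -0.21 for CDKN1B, 0.25 for CDKN2C, 1.09 for RB1 and -0.58 for RBL2. CDKN2C stood at -0.14 with equal totals. The CDKN1B call was lost without shRASSF2-2 replicate 1 (-0.19) or shRASSF2-1 replicate 1 (-0.15). The D cyclin CCND1 was lower, with a log2 difference of -1.35, and CCND2 and CCND3 were not called. CDK6 and CDK4 of the same list were called higher under both scalings. Of the 15 genes of this list tested 5 were higher and 5 lower (4 and 10 with equal totals). Of 14 E2F factors and partners 10 were lower (13 with equal totals) and none higher, with log2 differences of -1.36 for LIN9 and -0.99 for E2F1.

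Targets of p53, CDKN1A among them, gave both directions. Of 24 tested 13 were higher and 8 lower with a median of 0.41, and with equal totals 8 were higher and 10 lower. GDF15, a stress hormone, had 257, 185 and 264 with shRASSF2-2, against 4.76, 11.5 and 9.07 with shRASSF2-1. The antiproliferative gene BTG2 had 7352, 7659 and 7669 with shRASSF2-2, against 2581, 2575 and 2333 with shRASSF2-1. TNFRSF10B, a death receptor for TRAIL, had 543, 477 and 563 with shRASSF2-2, against 2043, 2087 and 2014 with shRASSF2-1, and ZMAT3 was lower, with a log2 difference of -1.18. Of 15 BCL2 family genes tested 9 were higher and 4 lower, and with equal totals 8 and 6. The death genes BMF and PMAIP1 were higher by log2 differences of 2.31 and 2.21, and the survival genes BCL2A1 and BCL2L1 by 2.70 and 0.82, while the death genes BAD and BIK were lower at -0.98 and -0.95.

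Ribosomal protein mRNAs and the mRNAs encoded in the mitochondrial chromosome were mostly lower, by smaller amounts. Of 68 ribosomal protein genes 44 were lower and 11 higher with a median of -0.27, and 1 differed by at least 2-fold. With equal totals 56 were lower and 3 higher. RPS3A had 4879.6, 5065 and 5293 with shRASSF2-2, against 9410.3, 8583 and 9514 with shRASSF2-1. RPL28 was higher and had 9883, 9688 and 10655 with shRASSF2-2, against 5522, 5306 and 5273 with shRASSF2-1. Ribosomal protein genes have many pseudogenes. Of the 13 mRNAs encoded in the mitochondrial chromosome 12 were called lower and none higher, with a median of -0.60, and with equal totals all 13 were lower with a median of -0.99. The libraries of the hairpins did not overlap in 8 of the 13. The list took 1.67%, 2.27% and 1.62% of reads with shRASSF2-2 and 3.41%, 3.67% and 4.08% with shRASSF2-1. COX2, the mitochondrial cytochrome oxidase subunit, had 19165, 26835 and 19377 with shRASSF2-2, against 42887, 40497 and 42527 with shRASSF2-1. ND6, which was not called, had 9937, 15411 and 9664 with shRASSF2-2, against 10639, 13659 and 15189.7 with shRASSF2-1. Replicate 2 was the highest shRASSF2-2 library in the list sum and in both genes, and without it ND6 was called lower at -0.41. Of all 31 genes tested on the mitochondrial chromosome 9 were called higher, 6 of them at least 2-fold, and 14 lower, with a median of -0.115. The nuclear subunits of the respiratory chain had a median of 0.08 that turned to -0.31 with equal totals.

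**Figure D4:**
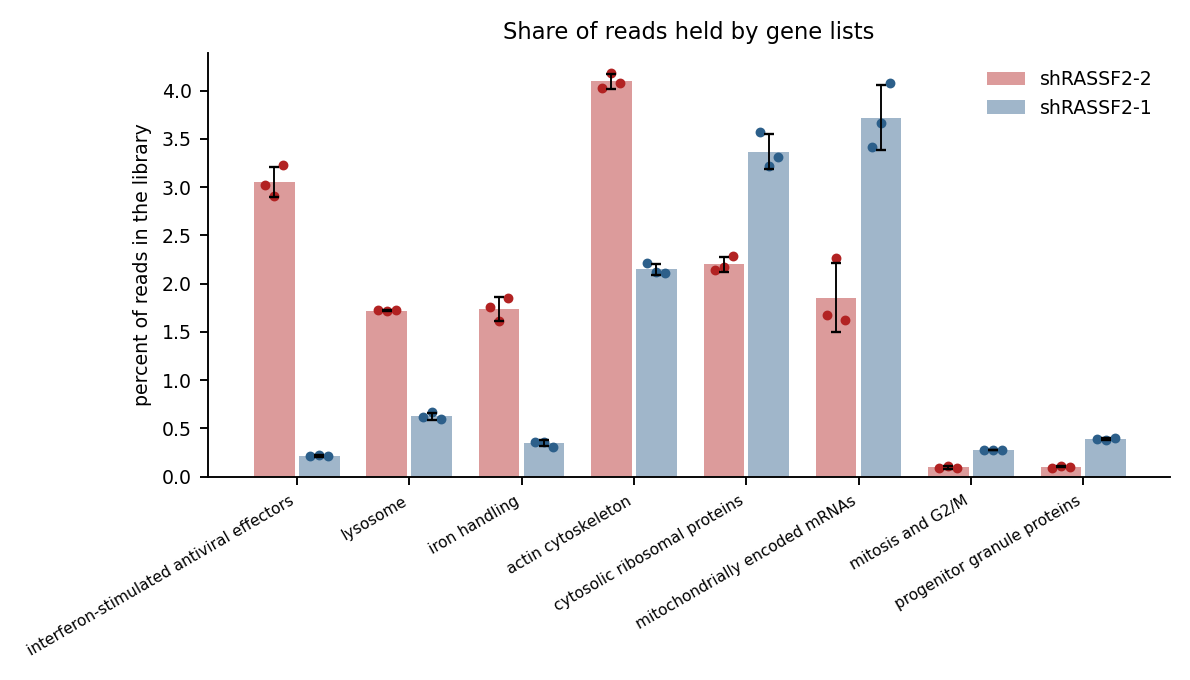
Percent of each library's reads held by 8 gene lists; bars are group means, whiskers the SD of 3 libraries and points the libraries, with shRASSF2-2 at the left of each pair. Interferon effectors hold 3.05% against 0.217%, and mitochondrially encoded mRNAs 1.85% against 3.72%.

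Stress and metabolic lists leaned higher on the deposited scale only in part. Chaperones gave 14 higher and 4 lower of 22, but 7 and 9 with equal totals, so the sign of the balance changed with the scaling. HSPB1, a small heat shock protein, was higher by a log2 difference of 1.65 and by 1.26 with equal totals. Genes of endoplasmic reticulum folding gave 15 higher and 4 lower of 21 (9 and 6 with equal totals), with CALR higher by a log2 difference of 2.03 and EDEM1 by 1.43. DDIT3 (CHOP), a factor of the ATF4 response, had 884, 878 and 1102 with shRASSF2-2, against 157, 187 and 129.7 with shRASSF2-1. Cholesterol and fatty acid synthesis genes and glycolysis genes had medians of 0.28 each, which became -0.11 and -0.11 with equal totals. MSMO1, a sterol oxidase, was higher by a log2 difference of 2.73, and hexokinase HK2 by 1.85.

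Early response factors showed both directions. Of 16 tested 12 were higher and 3 lower (9 and 4 with equal totals), and of 15 feedback inhibitors of ERK signalling 9 were higher and 3 lower (8 and 4). ATF3 had 2705, 2627 and 2656 with shRASSF2-2, against 46.7, 50.4 and 34.5 with shRASSF2-1, a log2 difference of 5.91, and MAFF was higher by 4.39. FOS and FOSB were lower, with log2 differences of -0.62 and -1.24, while JUN, JUNB and JUND were higher by 1.17, 0.93 and 1.86. The ERK phosphatase DUSP4 had 1498, 1378 and 1313 with shRASSF2-2, against 107, 101 and 108 with shRASSF2-1, and DUSP6 and SPRY2, which also damp ERK signalling, were higher by log2 differences of 1.05 and 1.16. NR4A3, an orphan nuclear receptor named after its values were seen, had 451, 547 and 531 with shRASSF2-2, against 2.86, 1.77 and 11.8 with shRASSF2-1. Its log2 difference was 6.63, or 7.28 without shRASSF2-1 replicate 3.

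Genes near RASSF2 in its pathway gave both directions. Of 11 RASSF family and Hippo kinase genes tested 8 were higher and 2 lower, and with equal totals 4 and 4. RASSF3 had 1228, 1281 and 1265 with shRASSF2-2, against 297, 369.6 and 378 with shRASSF2-1, a log2 difference of 1.86. RASSF1, a tumor suppressor of the family, was lower and had 486, 491 and 464 with shRASSF2-2, against 1184, 1095 and 1074 with shRASSF2-1. The kinase STK4 (MST1) was higher by a log2 difference of 0.72, and STK3 (MST2) by 0.25, which with equal totals was -0.14. The STK3 call was lost without shRASSF2-1 replicate 2 (0.22, limma adjusted p = 0.0586) or replicate 3 (0.22, limma adjusted p = 0.0545). Below these kinases, of 20 Hippo genes 10 were higher and 6 lower, and the median of 0.22 turned to -0.16 with equal totals and to -0.03 without shRASSF2-1 replicate 1. The coactivator YAP1 had 89.6, 64.7 and 67 with shRASSF2-2, against 259, 347 and 330.2 with shRASSF2-1. TEAD3, a DNA-binding partner, had 7.94, 14.8 and 18.7 with shRASSF2-2, against 120.0, 131 and 118 with shRASSF2-1. Both were lower. The YAP1 targets CYR61, CTGF and ANKRD1 were low and not called. The kinase STK38L was higher by a log2 difference of 2.03.

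The machinery that processes a hairpin was expressed in every library, and all 13 of its genes were called, 5 higher and 8 lower, with a median of -0.28. With equal totals none was higher and 9 were lower. AGO2, the Argonaute protein that cuts paired transcripts, had 1234, 1386 and 1249 with shRASSF2-2, against 2199, 2174 and 2366 with shRASSF2-1, a log2 difference of -0.80. DGCR8 and TNRC6C were lower, with log2 differences of -0.77 and -1.0. DICER1 had 2273, 2069 and 2226 with shRASSF2-2, against 1657, 1575 and 1727 with shRASSF2-1, and was higher by a log2 difference of 0.41, and the exporter XPO5 by 0.41.

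Many of the highest genes fall in no list above. TNFSF18, the ligand of the receptor GITR, had 209.7, 299.6 and 282 with shRASSF2-2, against 0, 0 and 0 with shRASSF2-1, and against a floor of 3 reads per library it was at least 96.2-fold higher. TRDN, ERICH3 and C2orf91 likewise had no read with shRASSF2-1 and were at least 61, 53.7 and 43.8-fold higher. SDS, serine dehydratase, had 3939.7, 4138 and 4062 with shRASSF2-2, against 12.4, 18.6 and 14.5 with shRASSF2-1. ADAMDEC1, a secreted metalloprotease of macrophages and dendritic cells, had 11142, 11089 and 12778 with shRASSF2-2, against 61.9, 63.7 and 59.9 with shRASSF2-1, a log2 difference of 7.53 (limma adjusted p = 4.3e-16). EDNRB, an endothelin receptor, had 4244, 3713 and 4512 with shRASSF2-2, against 36.2, 29.2 and 35.4 with shRASSF2-1. DDIT4L, an inhibitor of mTOR signalling, had 3441, 2761 and 3645 with shRASSF2-2, against 16.2, 32.7 and 23.6 with shRASSF2-1. RASGEF1B, an exchange factor for Rap proteins, had 582, 694 and 706 with shRASSF2-2, against 0.953, 7.07 and 4.54 with shRASSF2-1. Its log2 difference was 7.22, or 6.62 without shRASSF2-1 replicate 1.

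APOBEC3A, a cytidine deaminase of single-stranded DNA, had 133, 235 and 154 with shRASSF2-2, against 0, 0.884 and 0 with shRASSF2-1, which is 464 reads against 1, a ratio of 570 with an exact 95% interval of 102 to 22556. LINC01229, a long noncoding RNA, had 459 reads against 1, a ratio of 564 with an interval of 101 to 22314. These intervals cover counting error only. APOBEC3A, LINC01229, TNFSF18, TRDN, ERICH3, C2orf91 and RASGEF1B reached the minimum count with shRASSF2-2 only. TMEM255A and PLPPR4, membrane proteins, were higher by log2 differences of 7.23 and 7.03. The highest genes named here were chosen among called genes whose libraries did not overlap between the hairpins. Their lack of overlap follows from that choice and is not a result.

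The lowest genes came from several families. TGM5, a transglutaminase, had 11.3, 12.5 and 9.89 with shRASSF2-2, against 486, 415 and 410.0 with shRASSF2-1. ARTN, a growth factor for neurons, had 29.5, 39.7 and 29.7 with shRASSF2-2, against 831, 763 and 805 with shRASSF2-1. S1PR3, a receptor for sphingosine 1-phosphate, had 13.6, 15.9 and 14.3 with shRASSF2-2, against 268, 286 and 301 with shRASSF2-1. SERPINB2, an inhibitor of plasminogen activators, had 7.94, 4.54 and 18.7 with shRASSF2-2, against 202, 134 and 173 with shRASSF2-1. The anion exchanger SLC4A3 had 28.3, 19.3 and 15.4 with shRASSF2-2, against 418, 416 and 425 with shRASSF2-1. HAL, which degrades histidine, had 26.1, 26.1 and 35.2 with shRASSF2-2, against 263, 271 and 336 with shRASSF2-1. NYAP1, NGEF, SPOCK1, RFX8, EPPK1, SLC24A4, LTK, FAM135B and the noncoding RNAs LINC00482 and LOC101927851 completed the 20 lowest, with log2 differences between -5.08 and -3.44. NYAP1 rested on few reads in shRASSF2-2, and without replicate 1 or 3 of that group its difference was -5.79 or -4.30.

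Markers of other cell types were checked in the same libraries. Of 9 epithelial markers tested 1 was called, VIL1, with 54.4, 40.9 and 60.4 with shRASSF2-2, against 1.91, 19.5 and 0.907 with shRASSF2-1. Its log2 difference was 3.43, or 4.47 without shRASSF2-1 replicate 2 and 2.76 without replicate 3. KRT8, KRT18 and KRT19 were highest in shRASSF2-1 replicate 2, KRT8 with 309.5, 352 and 200.0 with shRASSF2-2, against 160.0, 496 and 106 with shRASSF2-1. FCGBP was lowest in shRASSF2-1 replicate 1, with 955, 935 and 1545 with shRASSF2-2, against 119, 1228 and 1064 with shRASSF2-1. Summed over the list, epithelial markers had 2262 to 2580.3 in the shRASSF2-2 libraries and 1089 to 2939.6 in the shRASSF2-1 libraries, and EPCAM and CDH1 were too low to test. Without shRASSF2-1 replicate 2, KRT8 was called higher at 1.09 and FCGBP at 1.64, and the log2 difference of FCGBP was -0.04 without shRASSF2-1 replicate 1. The log2 difference of ISG15 was 6.29 and that of CTSD 2.87 without shRASSF2-1 replicate 2. Of 16 T and NK cell markers 3 were tested, and of 14 erythroid and megakaryocyte markers 2. The B cell factor PAX5 had 1419, 1290.2 and 1485 with shRASSF2-2, against 31.4, 41.6 and 39.9 with shRASSF2-1. CD22 had 83.9, 102 and 73.6 with shRASSF2-2, against 3.81, 1.77 and 0.907 with shRASSF2-1, while CD79B was lower, with a log2 difference of -1.11.

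Among the connective tissue markers, COL1A1 had 120.2, 128 and 186 with shRASSF2-2, against 12.4, 38 and 24.5 with shRASSF2-1. THY1 had 38.5, 22.7 and 30.8 with shRASSF2-2, against 55.2, 142 and 107 with shRASSF2-1. FN1, fibronectin, had 180.3, 155 and 392 with shRASSF2-2, against 248, 923 and 392 with shRASSF2-1, with overlapping libraries, and its call was lost without any 1 of 4 of the libraries, with log2 differences between -1.10 and -0.48. Over 10 tested 2 were higher and 4 lower, and of 11 endothelial markers 1 was higher and 4 lower.

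**Figure D5:**
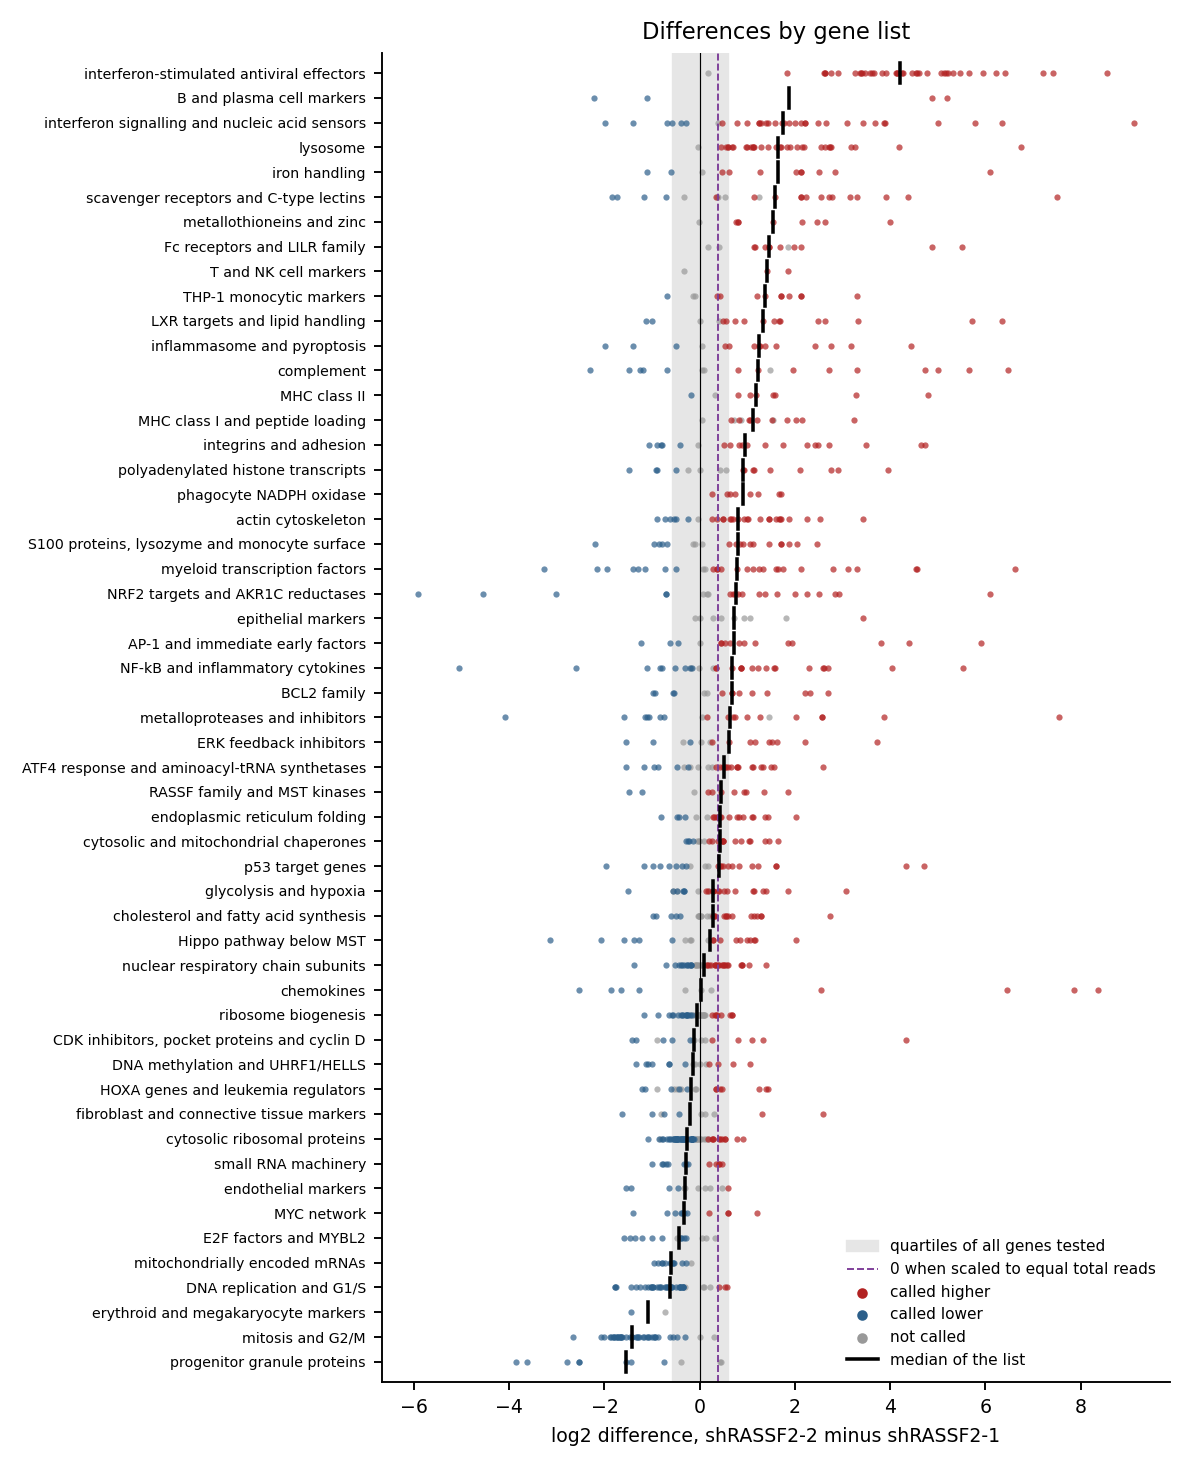
Log2 difference of shRASSF2-2 minus shRASSF2-1 for each member of each list, ordered by the list median (black bar); red points were called higher, blue lower and grey not called. The grey band spans the quartiles of all genes tested (-0.57 to 0.60), and the dashed line marks where 0 would fall with equal totals.

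Position and gene type were compared as descriptions. By chromosome the median log2 difference ran between -0.21 on chromosome 16 and 0.21 on chromosome X. Long noncoding RNAs had a median of -0.30 over 1030 genes and protein-coding genes 0.01 over 13410. Of 6 classes by mean value, the 958 most abundant genes were called higher in 62.2% and lower in 24.4%, with a median of 0.40. The 2039 scarcest genes, with a mean under 30, were called higher in 19.1% and lower in 29.6%, with a median of -0.31, so on the deposited scale abundant transcripts leaned toward shRASSF2-2 and scarce ones toward shRASSF2-1. With equal totals the medians of these 2 classes were 0.01 and -0.67.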

How the data were processed

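Poly(A) RNA of THP-1 cells was sequenced, and 6 libraries were used here. The values are deposited normalized read counts of unit signal, which the authors made on hg38. The submitters' processing notes name DESeq2 1.18.1, featureCounts 1.6.2, HISAT2 2.1.0 and Picard without role or order, and no source used here gives the strand setting. Within each library 100% of values were whole multiples of 1 read within 0.001 of a read, so whole reads were recovered, and with edgeR's quasi-likelihood test on them the genes called numbered 10969. Of the gene symbols, 22 had turned into dates and were restored by Entrez identifier, and 195 genes had no symbol.

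Genes that reached a value of 10 in 3 or more of the 6 libraries were tested with limma 3.58.1 (trend) in R 4.3.3 on log2(value + 1), with Benjamini-Hochberg adjustment and a threshold of 0.05. A fold on this scale understates the change of low genes. Alternatives used edgeR 4.0.16, DESeq2 1.42.0, other scalings, filters and pseudocounts. The scripts were tested on simulated data. Intervals are exact 95% intervals for counting error only, and 3 reads per library is the floor. Positions and promoters are from RefSeq on GRCh38.p14, with 18250 genes placed by Entrez identifier.

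Named genes are RASSF2, the 20 highest and 20 lowest among called genes whose mean reached 50, with no overlap between groups, the 10 most abundant called genes with a 2-fold difference, up to 6 genes per list with a mean of at least 20 and the smallest p, and any member of a list of at most 20 genes. Others are named as chosen after their values were seen. A few genes that the rule names are not reported here. The members and gene lists were chosen with earlier results of these data known. The authors' fold changes and adjusted p-values were not used.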

Additional observations from a re-analysis of the deposited data

How the results depend on the processing

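Scaling changed the balance of higher and lower calls. With equal total reads 3480 genes were called higher and 8309 lower, and CDKN2C (-0.14), GBP5 (-0.21), NR1H3 (-0.38), RAC2 (-0.13), SPI1 (-0.031), STK3 (-0.14) and ZMPSTE24 (-0.30) changed sign on the log2 scale. Among genes with a mean of at least 100, 2642 were called with a 2-fold difference, since fewer genes were tested, and 2 lists had no gene left. The number of genes called was 10969 with edgeR, 10444 with DESeq2, 11417 with no filter, 8647 among genes with a mean of at least 100 and 7907 against a fold of 1.2. Leaving out 1 library gave 10337 to 10616. Same-numbered libraries did not deviate together, with correlations of 0.005, -0.003 and 0.002, and with the replicate number as a block 10763 genes were called. Of the 241 tested genes named with a value, edgeR changed the call of none and DESeq2 ended 1, that of FN1. Genes with few reads, such as IFNB1, could not be tested at this depth, and 3 libraries a group limit all statements.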

Other observations

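Further gene groups were tested in the same fit. Of 20 metalloproteases and their inhibitors 11 were higher and 7 lower with shRASSF2-2, and with equal total reads 9 and 8. ADAM28, a membrane metalloprotease of leukocytes, had 3712, 3866 and 3886 with shRASSF2-2, against 249.6, 287 and 241 with shRASSF2-1. The gelatinase MMP2 had 1887, 1825 and 1701 with shRASSF2-2, against 249.6, 327 and 337 with shRASSF2-1, and the inhibitor TIMP3 had 4379.6, 5648 and 4214 with shRASSF2-2, against 1074, 1182 and 1212 with shRASSF2-1. The log2 differences of these genes were 3.88, 2.57 and 2.03, and the groups did not overlap, as in 74.8% of all genes tested. Of 17 polyadenylated histone transcripts 9 were higher and 4 lower (7 and 5 with equal totals). HIST1H2BD had 391, 379 and 447 with shRASSF2-2, against 23.8, 23.9 and 28.1 with shRASSF2-1, and the linker histone gene HIST1H1C had 194, 261 and 212 with shRASSF2-2, against 659, 524 and 675 with shRASSF2-1, with log2 differences of 3.95 and -1.48. Histone genes have near-identical copies, so the split of reads between them is uncertain.

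Of 18 HOXA genes and leukemia regulators 7 were higher and 5 lower, and with equal totals 3 and 10. The transcription factor MEF2C and the receptor kinase FLT3 were higher, with log2 differences of 1.39 and 1.44, and HOXA3 was lower at -1.22. Of 11 genes of the MYC network 4 were higher and 7 lower (3 and 8 with equal totals). MAX, the dimer partner of MYC, had 2084, 2157 and 2254 with shRASSF2-2, against 1039, 918 and 857 with shRASSF2-1, a log2 difference of 1.21. MXD3, which competes for MAX, had 28.3, 45.4 and 29.7 with shRASSF2-2, against 98.1, 80.5 and 94.3 with shRASSF2-1, a log2 difference of -1.40. Of 15 genes of DNA methylation 4 were higher and 7 lower, and with equal totals 2 and 11. UHRF1, which brings DNMT1 to replicated DNA, had 226, 259 and 209 with shRASSF2-2, against 475, 508 and 495 with shRASSF2-1, a log2 difference of -1.10. Of 38 ribosome biogenesis genes 8 were higher and 16 lower, and with equal totals 3 and 30. POLR1C, a subunit shared by RNA polymerases I and III, had 379, 393 and 439.6 with shRASSF2-2, against 978, 934 and 832 with shRASSF2-1, a log2 difference of -1.18. Over all genes tested, 36.3% were called higher and 35.8% lower.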
